A study of Homo sapiens with 32 samples.

Results

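The cytosolic ribosomal protein genes were taken as the rows of a transcript abundance table whose symbols are RPL or RPS followed by a number, with or without a closing A, X, Y or L and digit, together with RPLP0, RPLP1, RPLP2 and RPSA. The rule used symbols alone and found 85 of 19345 rows. Of these, 77 encode the standard proteins of the ribosome, 46 of the large and 31 of the small subunit, and are called core members here. The other 8 are paralogs, second copies of a core gene, and comprise RPS27L, RPL7L1, RPL26L1, RPL39L, RPL22L1, RPL3L and the Y-linked pair, whose levels are not given. The paralog RPL10L has no row. A filter on low values passed 84 members, all 77 core genes and 7 paralogs.

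The libraries came from EPC2, a wild-type human esophageal epithelial line immortalised with telomerase, so every group rests on 1 line. Groups were the monolayer cells collected at day 0 (10 libraries), spheroids grown in Matrigel to day 3 (D3, 9 libraries), D11 spheroids given the type 2 cytokine IL-13, 20 ng/ml, over days 3 to 11 (6 libraries) and D11 spheroids left untreated (7 libraries). Spheroids were embedded in a keratinocyte serum-free medium with added calcium and the ROCK inhibitor Y27632, which was left out from day 3 on, and the monolayer cells were taken before embedding. The labels place the libraries in 2 batches and speak of 2 independent experiments, and nothing states that libraries within a batch were separate cultures, so p-values measure the spread between libraries, which may be technical.

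A ribosome joins a small subunit, which reads the mRNA, to a large subunit, which forms the peptide bond, and each holds 1 copy of most of its proteins. The P proteins form a stalk on the large subunit that recruits elongation factors. Most ribosomal protein mRNAs begin with an unbroken run of pyrimidines, C first, called a 5′ terminal oligopyrimidine (TOP) tract, through which the kinase complex mTORC1 and the RNA-binding protein LARP1 are known to control their translation and stability. In stratified squamous epithelium, basal cells divide and their daughters stop dividing and fill with differentiation products.

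The start of the transcript is given for members on which the results turn, since the TOP tract is what most of the family shares outside its proteins. Each line runs from 10 bases before to 20 bases from the start annotated by RefSeq on GRCh38.p14, 5′ to 3′ on the gene's strand. Capitals mark the run of C and T that begins at that start.
RPS27, chr1:153990752-153990781, plus strand: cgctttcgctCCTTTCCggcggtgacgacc
RPL39, chrX:119791611-119791640, minus strand: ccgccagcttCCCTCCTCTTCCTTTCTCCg
RPL12, chr9:127451387-127451416, minus strand: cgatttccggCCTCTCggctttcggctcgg
RPL13A, chr19:49487598-49487627, plus strand: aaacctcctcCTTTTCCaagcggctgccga
RPL3, chr22:39319604-39319633, minus strand: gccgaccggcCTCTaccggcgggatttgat
RPL36A, chrX:101391001-101391030, plus strand: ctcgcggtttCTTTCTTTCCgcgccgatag
RPL22, chr1:6199576-6199605, minus strand: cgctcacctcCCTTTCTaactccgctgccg
RPL22L1, chr3:170870176-170870205, minus strand: ccgtagcttcCTCTCTgctctcgcggccga
RPL26, chr17:8383174-8383203, minus strand: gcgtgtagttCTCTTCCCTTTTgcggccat
RPL26L1, chr5:172958719-172958748, plus strand: tccaggggtcggcgaacgaaacgcggagct
RPS27L, chr15:63157458-63157487, minus strand: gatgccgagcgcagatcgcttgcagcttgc
RPL7L1, chr6:42879606-42879635, plus strand: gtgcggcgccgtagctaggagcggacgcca
A promoter entry was found for 68 members, 62 of them core. A run of at least 5 pyrimidines with C at the start was present in 42 of the 62 core genes (67.7%), against 2 of 6 paralogs (33.3%), 4.04% of all 27305 genes with an entry and 5.00% of 9465 other genes tested. The median core run was 7 bases and the longest, in RPL39, was 19. RPS27L, RPL7L1 and RPL26L1 had none at the annotated start, while RPL22L1 had a run of 6. The window follows the annotated start, so a member without a run may still be transcribed from a start that has one.

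Values are TPM, the share of a library that each gene takes up after correction for transcript length, so depth is unknown and levels of different genes can be set side by side. The 13 mitochondrially encoded genes whose symbols begin MT- took 47.6 ± 2.00% of the total in monolayer cells, 47.8 ± 7.27% at D3 and 21.9 ± 3.98% in untreated D11 spheroids (SD, n = 10, 9 and 7), so each comparison is given on the deposited TPM and again with these genes removed and the rest rescaled to the same total. D3 libraries 1, 3, 4, 5 and 6 had an MT- share of 39.1 to 45.8%, and D3 libraries 2, 7, 8 and 9 one of 53.1 to 57.1%. The squamous markers KRT5, KRT14 and TP63 summed to 19033 to 23736 TPM in monolayer cells, 55905 to 83266 TPM at D3 and 45868 to 70319 TPM at D11 without IL-13. Nearly all of this was keratin, and TP63, which defines basal cells, had 16.4 to 26.1, 15.3 to 21.5 and 10.4 to 12.5 TPM in that order. Of 4 simple or columnar markers 2 passed the filter, KRT18 with 254.4 to 487.7, 47.9 to 104 and 52.3 to 101.7 TPM and KRT8 with 29.4 to 47.2, 15.9 to 21.4 and 5.2 to 7 TPM in that order, while MUC2 was listed at 0 and CDX2 did not exceed 0.1. Of 4 fibroblast markers, COL1A2 and COL3A1 were listed at 0 throughout, while COL1A1 averaged 5.94 ± 2.41 TPM in monolayer cells, 19.6 ± 9.37 at D3 and 69.9 ± 8.43 in untreated D11 spheroids. Of 3 immune markers, CD68 averaged 194 ± 44.7 TPM in monolayer cells, 143 ± 19.6 at D3 and 436 ± 28.4 in untreated D11 spheroids, while PTPRC and CD3E did not exceed 0.1. The part of these genes in the results was not tested. In bulk RNA, fewer cells of a kind and less RNA per cell cannot be told apart.

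The ribosomal protein genes together took up more of the RNA in spheroids than in monolayer cells. Their summed share was 2.56 ± 0.187% in monolayer cells, 3.88 ± 0.567% at D3 and 4.92 ± 0.456% in untreated D11 spheroids (SD, n = 10, 9 and 7), and no monolayer library reached the lowest spheroid library. Without MT- genes the shares were 4.89 ± 0.213%, 7.43 ± 0.291% and 6.29 ± 0.282% in the same order, so that D3 spheroids had the highest share and the 3 groups did not overlap. On the deposited TPM the D3 libraries formed separate sets by their MT- share, with 4.17 to 4.79% in libraries 1, 3, 4, 5 and 6 and 3.20 to 3.46% in libraries 2, 7, 8 and 9. A larger MT- share lowers that of all other genes in the same total. The split is therefore not a separate result about the members. After removal of MT- genes these sets were 7.11 to 7.88% and 7.03 to 7.68% and overlapped. No test is given for a sum over members.

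**Figure D1:**
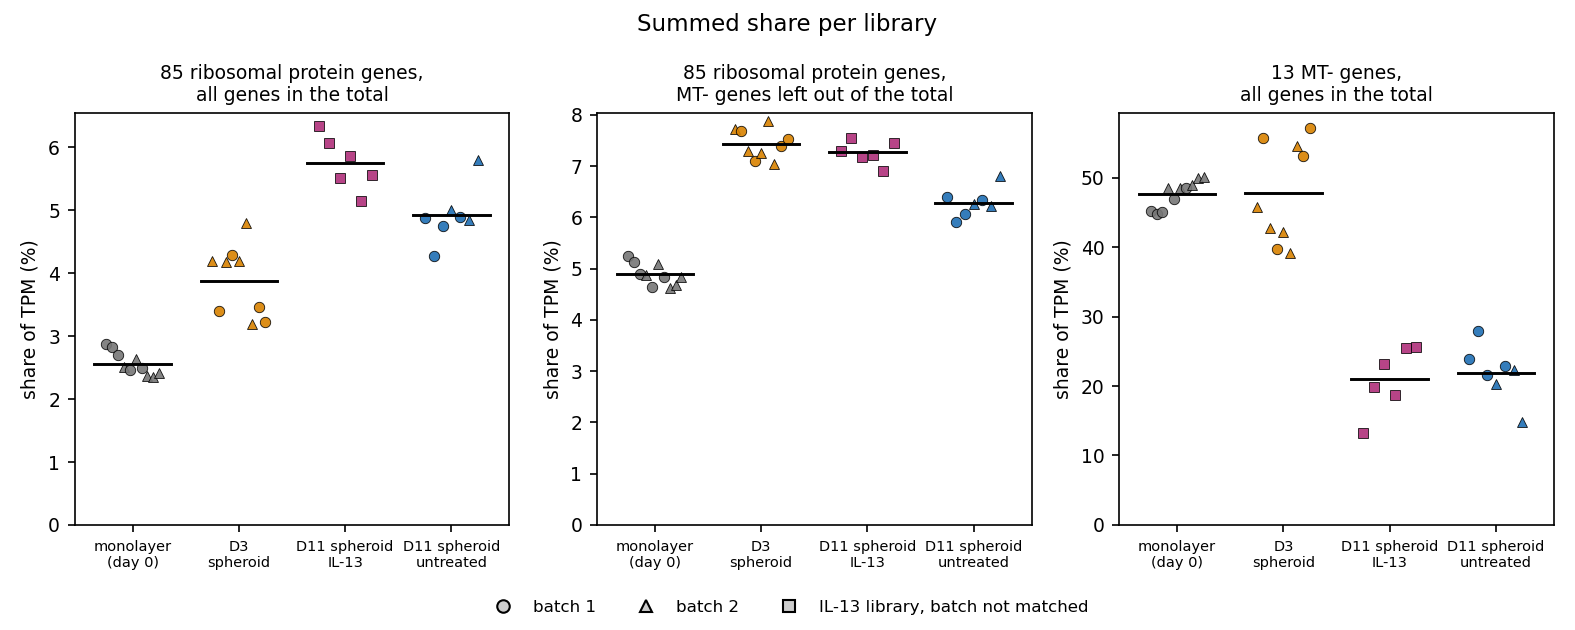
Summed share of the 85 ribosomal protein genes in the library total (percent, left), the same with MT- genes taken out of the total (middle) and the share of MT- genes (right), 1 point per library, with circles for batch 1, triangles for batch 2, squares for the IL-13 libraries, whose batch could not be matched, and a line for each group mean. Monolayer libraries lie at 2.35 to 2.87% on the left, under every spheroid library, and D3 libraries lie at 7.03 to 7.88% in the middle panel, above every untreated D11 library.

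The family is uneven in its deposited TPM. RPL41, which encodes the smallest ribosomal protein, averaged 5124 TPM over the 32 libraries, followed by RPL29 with 3023, RPL8 with 2705 and RPS2 with 2465 TPM. RPL36A, a component of the large subunit, had the lowest level of any core gene in every group, and RPL41 stood 292-fold above it in monolayer cells, 744-fold at D3 and 1240-fold in untreated D11 spheroids. The order of the 77 core genes was close between groups, with a Spearman rho of at least 0.977 between the means of any 2 groups, a correlation across genes that share their libraries. Large subunit genes summed to 2.04 ± 0.0280 times the small subunit genes in monolayer cells, 1.99 ± 0.0776 times at D3 and 1.95 ± 0.0420 times in untreated D11 spheroids, ranges that overlap between neighbouring times. Paralogs held 1.03 ± 0.225% of ribosomal protein TPM in monolayer cells, 0.557 ± 0.123% at D3 and 0.328 ± 0.0643% in untreated D11 spheroids. The batches differed: monolayer libraries had 1.18 to 1.28% in batch 1 and 0.718 to 0.928% in batch 2. The latter overlapped the D3 range of 0.413 to 0.756%. Untreated D11 libraries had 0.362 to 0.389% in batch 1 and 0.239 to 0.303% in batch 2.

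The comparison of D3 spheroids with monolayer cells covers the move into Matrigel together with the embedding medium and the time in culture. That medium had added calcium and the ROCK inhibitor, and the parts of these factors cannot be told apart. Nearly the whole core rose. Of 84 members tested, 74 rose and 4 fell in D3 spheroids (limma on log2(TPM + 1), adjusted p under 0.05 over 12221 genes), against 12.7% and 68.2% of all genes, and the median member changed by 0.54 on the log2 scale where the median gene changed by -0.44. The counts were 75 and 4 without MT- genes, against 13.3% and 66.3% of all genes, with medians of 0.56 and -0.46. By subunit, 43 of 46 core large and 30 of 31 core small subunit genes rose, and 1 core gene, RPL36A, fell. Every D3 library lay above every monolayer library for 36 members (5.29% of all genes) and below for 0 (39.0%) on the deposited TPM, and above for 51 (6.24%) and below for 0 (32.4%) without MT- genes. Median-of-ratios scaling, which sets the median gene near 0, gave 80 higher and none lower, against 33.2% and 33.1% of all genes.

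RPL13A, a large subunit protein that is also known for a role in translational silencing, showed the largest rise on the deposited TPM, while RPL3L rose more without MT- genes (0.99 against 0.95) and RPS15A more under quantile normalization (1.35 against 1.24). It had 593.8 to 920.5 TPM in D3 spheroids (median 813.1) and 340.9 to 442.3 TPM in monolayer cells (median 396.3). The groups did not overlap, and the log2 change was 0.93 ± 0.07 (SE, limma, adjusted p = 2.7e-13). RPS15A and RPS3A, both of the small subunit, followed with 0.89 ± 0.11 (adjusted p = 1.3e-08) and 0.86 ± 0.10 (adjusted p = 2.7e-09). All 3 also rose relative to the family, when each library's median member was subtracted, by 0.38, 0.34 and 0.31 (limma, adjusted p = 3.2e-05, 1.8e-04 and 5.8e-05). On that relative scale 10 members rose and 16 fell, against 4.56% and 88.2% of all genes.

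The stalk proteins rose with the rest at D3. RPLP0, the stalk base, had 839 to 1299.3 TPM in D3 spheroids (median 1141.5) and 624 to 745.4 in monolayer cells (median 686.65), a log2 change of 0.64 ± 0.08 (limma, adjusted p = 1.2e-08) without overlap. RPLP1 and RPLP2, which form the stalk's dimers, rose by 0.55 ± 0.11 (adjusted p = 7.2e-05) and 0.71 ± 0.10 (adjusted p = 8.7e-08). RPS6, the small subunit protein phosphorylated downstream of mTORC1, rose by 0.63 ± 0.08 (adjusted p = 5.0e-08), RPSA, also known as the laminin receptor, by 0.57 ± 0.09 (adjusted p = 6.1e-07), and RPS27A, made as a fusion with ubiquitin, by 0.60 ± 0.12 (adjusted p = 3.5e-05). RPL10, which is added late to the large subunit, stood lower in the family: its log2 change was 0.18 ± 0.07 (adjusted p = 0.019, and 0.054 without D3 library 6), and relative to the median member it fell by 0.37 (adjusted p = 1.6e-04).

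The members that fell at D3 were RPL36A and the paralogs RPL22L1, RPL39L and RPL26L1. RPL36A had 3.1 to 12.5 TPM in D3 spheroids (median 6.6) and 9.8 to 15.2 TPM in monolayer cells (median 12.05), a log2 change of -0.75 ± 0.17 (limma, adjusted p = 1.5e-04) between groups that overlap. RPL22L1 had 32.5 to 70.9 TPM in D3 spheroids (median 43.8) and 45.6 to 100.2 TPM in monolayer cells (median 69.45), with a log2 change of -0.61 ± 0.14 (adjusted p = 2.8e-04). Both changes were below 0 on every scale fitted, but their size and their call depend on the scaling. Under median-of-ratios scaling they were -0.26 (limma, adjusted p = 0.15) and -0.08 (adjusted p = 0.64), neither called. Under quantile normalization they were -0.27 and -0.23, also not called. RPL39L and RPL26L1 lie at low levels, with highest libraries of 2 and 9.1 TPM, and both changed by -0.28 (adjusted p = 0.0020 and 0.032) on the deposited TPM but by 0.04 and 0.17, neither called, under median-of-ratios scaling. The RPL26L1 call was lost without any of monolayer libraries 1, 2, 3 and 5 or D3 libraries 4, 8 and 9, at -0.26 to -0.23. Relative to the median member, RPL36A fell by 1.30, RPL22L1 by 1.16, RPL26L1 by 0.83 and RPL39L by 0.83 (limma, adjusted p = 1.1e-07, 3.4e-08, 3.4e-08 and 8.2e-08). At the low levels of RPL39L and RPL26L1 that scale still depends on the total through the pseudocount.

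**Figure D2:**
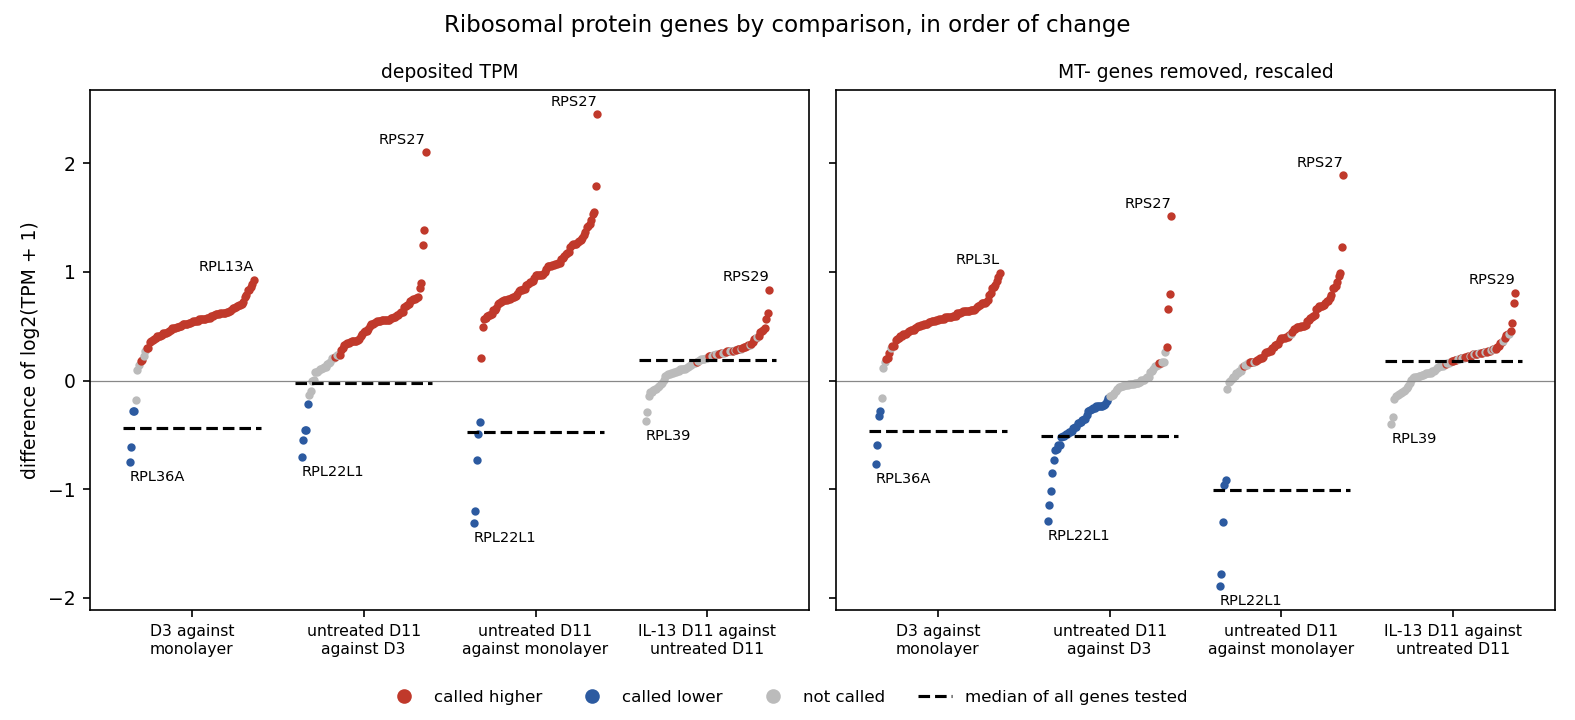
Log2 change of each of 83 members without the Y-linked ones, ordered by size, in the 4 comparisons, on the deposited TPM and with MT- genes removed, with red for called higher, blue for called lower, grey for not called, and a dashed line at the median of all genes. For untreated D11 against D3 spheroids most members lie above 0 on the deposited TPM (median 0.44) and below 0 with MT- genes removed (median -0.16), and in both panels most lie above the dashed line.

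Between D3 and untreated D11 spheroids the direction of the family depended on how the libraries were scaled, while 6 members, RPS27, RPL39, RPL12, RPL30, RPL28 and RPS19, rose on each of the 5 scales fitted. On the deposited TPM 59 members rose and 5 fell in untreated D11 spheroids (limma), against 33.6% and 35.8% of all genes, with medians of 0.44 for members and -0.02 for all genes. Without MT- genes 6 rose and 42 fell, against 13.6% and 65.7% of all genes, with medians of -0.16 and -0.51. Median-of-ratios scaling gave 63 higher and 5 lower (37.8% and 35.3% of all genes), and quantile normalization 20 higher and 33 lower (33.7% and 39.4%). Every untreated D11 library lay above every D3 library for 24 members and below for 1 on the deposited TPM (19.1% and 19.0% of all genes), and for 1 and 18 members without MT- genes (7.72% and 43.8%).

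RPS27, a zinc-finger protein of the small subunit, stood apart. It had 218.3 to 276.6 TPM in untreated D11 spheroids (median 249.5) and 35.6 to 86.9 TPM in D3 spheroids (median 60.3), while monolayer cells had 32.7 to 58.8 TPM (median 46.65). The D11 libraries thus shared no value with either of the earlier groups, which overlap each other. The log2 change against D3 was 2.10 ± 0.15 on the deposited TPM (limma, adjusted p = 1.4e-13), 1.52 ± 0.14 without MT- genes (adjusted p = 2.3e-11) and 1.68 ± 0.13 relative to the median member (adjusted p = 1.1e-12), and it was 2.23 within batch 1 and 1.97 within batch 2. Of the members outside RPS27, RPL39, a short protein lining the peptide exit tunnel, rose most. RPL39 had 97.1 to 188.6 TPM in untreated D11 spheroids (median 147.7) and 38 to 71.2 TPM in D3 spheroids (median 55.3), again without overlap. Its change was 1.39 ± 0.16 on the deposited TPM (adjusted p = 4.2e-09) and 0.80 ± 0.16 without MT- genes (adjusted p = 3.9e-05).

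RPL12, which binds at the base of the stalk, had 126.5 to 224.4 TPM in untreated D11 spheroids (median 156.2) and 47.9 to 91.7 TPM in D3 spheroids (median 66.1), with no overlap. It rose by 1.25 ± 0.12 on the deposited TPM (limma, adjusted p = 3.6e-10) and by 0.66 ± 0.12 without MT- genes (adjusted p = 9.8e-06). RPL30, RPL28 and RPS19 completed the 6 members that rose without MT- genes, with RPL30 at 0.31 there and 0.90 on the deposited TPM. Close to the threshold without MT- genes were RPL28 at 0.16 (limma, adjusted p = 0.049) and RPS19 at 0.16 (adjusted p = 0.045). Other large members moved the other way once MT- genes were removed. RPLP0 had 1034.7 to 1390 TPM in untreated D11 spheroids (median 1131) and 839 to 1299.3 in D3 spheroids (median 1141.5), a change of 0.10 that was not called on the deposited TPM (adjusted p = 0.29) and of -0.49 without MT- genes (adjusted p = 1.1e-09). RPL3, which contributes to the peptidyl transferase centre, changed by -0.00 on the deposited TPM (adjusted p = 1.0) and by -0.60 without MT- genes (adjusted p = 1.0e-11), and RPL13A by -0.13 and -0.73. Relative to the median member RPLP0, RPL3 and RPL13A fell by 0.32, 0.43 and 0.56, and in all 19 members rose and 27 fell on that scale, against 13.5% and 60.4% of all genes.

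**Figure D3:**
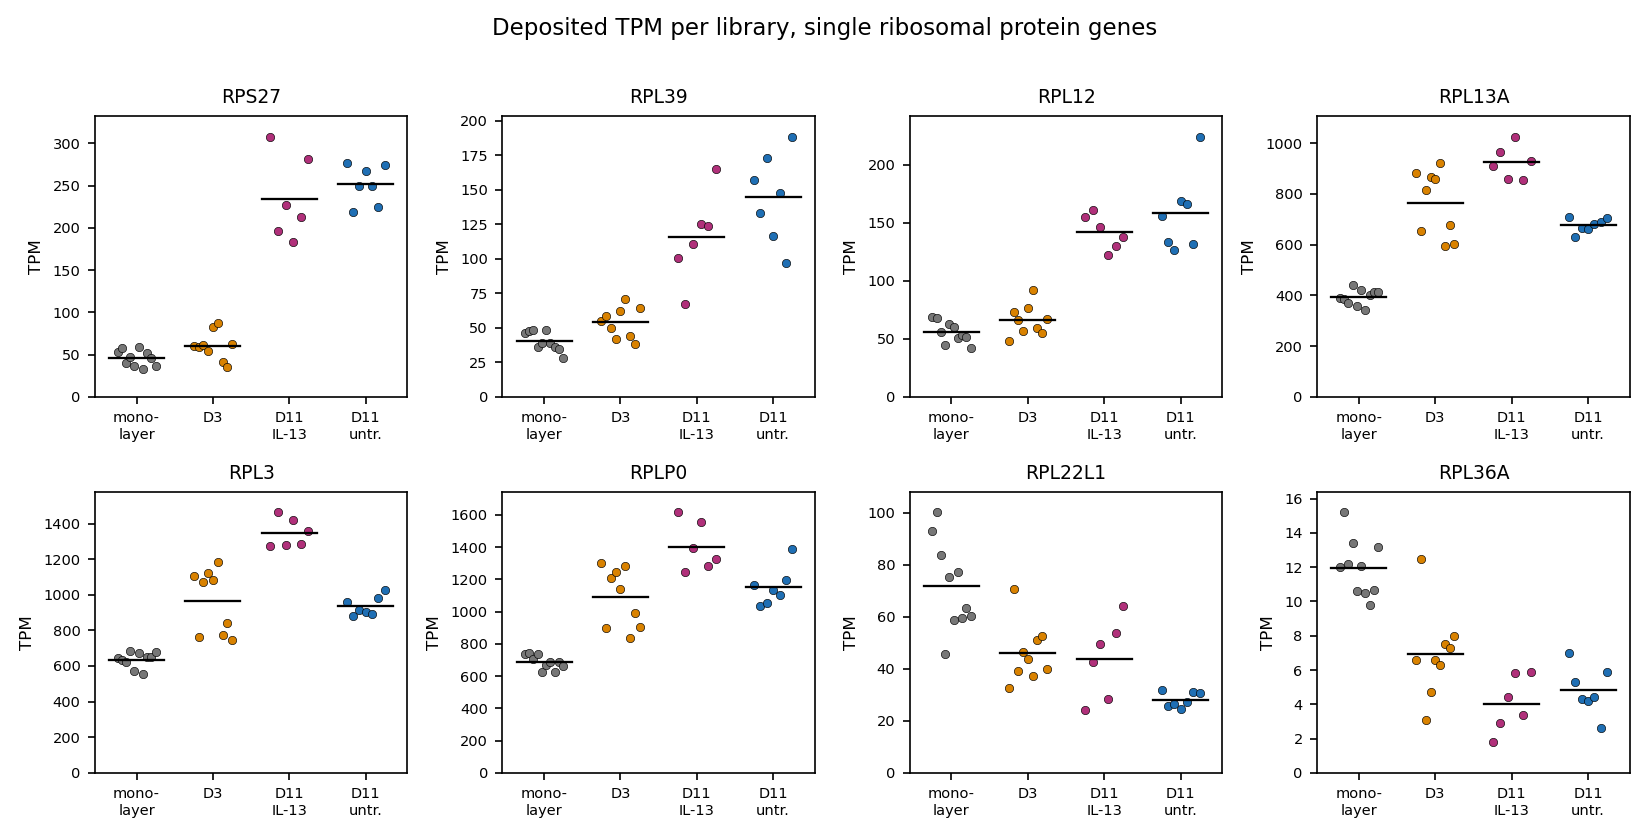
TPM of 8 members in each library of the 4 groups, on linear axes that start at 0, with a line for each group mean. RPS27, RPL39 and RPL12 lie higher in untreated D11 than in D3 spheroids in every library, RPLP0 and RPL3 overlap between these groups, and RPL22L1 and RPL36A lie lower in untreated D11 spheroids than in monolayer cells.

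Over the whole course, from monolayer cells to untreated D11 spheroids, 78 members rose and 5 fell on the deposited TPM (limma), against 21.0% and 63.5% of all genes, with medians of 0.95 for members and -0.48 for all genes. Without MT- genes 62 rose and 6 fell, against 12.1% and 78.7% of all genes, with medians of 0.38 and -1.0. Median-of-ratios scaling gave 79 higher and 3 lower (40.1% and 40.2% of all genes), and relative to the median member 23 rose and 34 fell (6.82% and 87.7%). All 31 core small subunit genes and 45 of 46 core large subunit genes rose on the deposited TPM. Untreated D11 libraries lay above all monolayer libraries for 72 members and below for 3 on the deposited TPM (13.4% and 45.3% of all genes), and for 35 and 5 members without MT- genes (8.25% and 66.0%). The largest rises were those of RPS27 at 2.45 ± 0.14 (adjusted p = 4.7e-16), RPL39 at 1.79 ± 0.15 (adjusted p = 3.3e-12) and RPL30, whose protein also represses its own splicing in yeast, at 1.55 ± 0.10 (adjusted p = 1.0e-14). RPL26, known in p53 translation, was close behind at 1.54 ± 0.13 (adjusted p = 3.2e-12), with 372.6 to 667.8 TPM in untreated D11 spheroids (median 496.7) and 122.1 to 204.2 in monolayer cells (median 166.8). RPL3 differed from these, with 0.57 ± 0.08 on the deposited TPM (adjusted p = 4.6e-08), -0.01 ± 0.05 without MT- genes (adjusted p = 0.92) and -0.40 relative to the median member (adjusted p = 1.4e-05).

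The members that fell in untreated D11 spheroids against the monolayer were RPL36A and the paralogs RPL22L1, RPL7L1, RPL39L and RPL26L1. RPL22L1 had 24.6 to 31.7 TPM in untreated D11 spheroids (median 27.1) against 45.6 to 100.2 TPM in monolayer cells (median 69.45), without overlap, and changed by -1.31 ± 0.15 (limma, adjusted p = 3.1e-09). RPL36A had 2.6 to 7 TPM (median 4.4) in untreated D11 spheroids against 9.8 to 15.2 TPM in monolayer cells and changed by -1.20 ± 0.18 (adjusted p = 3.3e-07), also without overlap. RPL7L1, whose protein is known from early large subunit assembly, changed by -0.73 ± 0.11 (adjusted p = 2.9e-07). Under median-of-ratios scaling the falls of RPL22L1, RPL36A and RPL39L were kept, at -0.73, -0.68 and -0.17, while RPL7L1 was at -0.14 (adjusted p = 0.18) and RPL26L1 at 0.12 (adjusted p = 0.34). RPL36A shares its name and much of its sequence with RPL36AL, whose symbol the rule does not reach and whose level is not given here. It also overlaps a readthrough transcript with HNRNPH2, which did not exceed 0.9 TPM. The low level of RPL36A is therefore uncertain.

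The paralogs were next set against their core partners, since a ratio of 2 genes within a library does not depend on the total. For RPL22L1 and RPL22, which are known to regulate each other and to be partly exchangeable in the ribosome, the paralog made up 62.4 ± 4.18% of the pair's TPM in monolayer cells, 41.1 ± 6.58% at D3 and 28.4 ± 2.41% in untreated D11 spheroids (SD, n = 10, 9 and 7). By TPM, RPL22L1 was thus the higher of the pair in the monolayer and RPL22 in D11 spheroids. RPL22 has 22 listed pseudogenes, copies to which reads can be assigned, and RPL22L1 has 0. How reads were divided among such copies is not given, so which gene was truly more abundant is uncertain. The difference between D3 spheroids and monolayer cells was -21.3 percentage points without overlap (2-sided exact permutation test, p = 2.2e-05, 0.000144 adjusted over 20 pair tests), and that between untreated D11 and D3 spheroids was -12.7 points with overlap (exact p = 0.00035, adjusted 0.0005). Within batches the shares were 45.1% in D3 spheroids and 65.5% in monolayer cells of batch 1, and 37.9% and 59.3% in batch 2. RPL22 itself rose, with 57.5 to 74.2 TPM in D3 spheroids and 38.5 to 50.6 TPM in monolayer cells, and had 62.8 to 77.2 TPM in untreated D11 spheroids.

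In 4 other pairs the paralog share was lower in spheroids too, while RPL3L, at no more than 0.121% of its pair with RPL3, was not tested. RPL7L1 made up 47.3% of its pair with RPL7 in monolayer cells, 32.6% at D3 and 20.9% in untreated D11 spheroids, with no overlap at either step (exact p = 2.2e-05 and 0.000175, adjusted 0.000144 and 0.000269). RPS27L, a p53-inducible paralog, was at 16.0%, 13.7% and 5.18% of its pair with RPS27 in the same order: the difference between D3 spheroids and monolayer cells missed the threshold (exact p = 0.0928, adjusted 0.103), and that between untreated D11 and D3 spheroids passed (exact p = 0.000175, adjusted 0.000269). RPS27L itself had 11 to 15.9 TPM in untreated D11 spheroids and 7.6 to 10.7 TPM in D3 spheroids, so its share was lower while its own level was not. RPL39L, best known from the testis, was at 4.08%, 2.28% and 0.661% of its pair with RPL39, and RPL26L1 at 3.50%, 1.56% and 0.918% of its pair with RPL26. These 5 pairs differed between untreated D11 spheroids and monolayer cells without overlap (exact p = 0.000103, adjusted 0.000229, in each). The partners RPL7, RPS27, RPL39 and RPL26 have 61, 15, 15 and 14 listed pseudogenes and their paralogs 0. The size of these shares therefore carries the same limit as that of RPL22L1. RPL3L, the striated muscle paralog of RPL3, did not exceed 1.3 TPM in any library, and its share of the pair averaged 0.0237% in monolayer cells, 0.0863% at D3 and 0.0347% in untreated D11 spheroids.

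**Figure D4:**
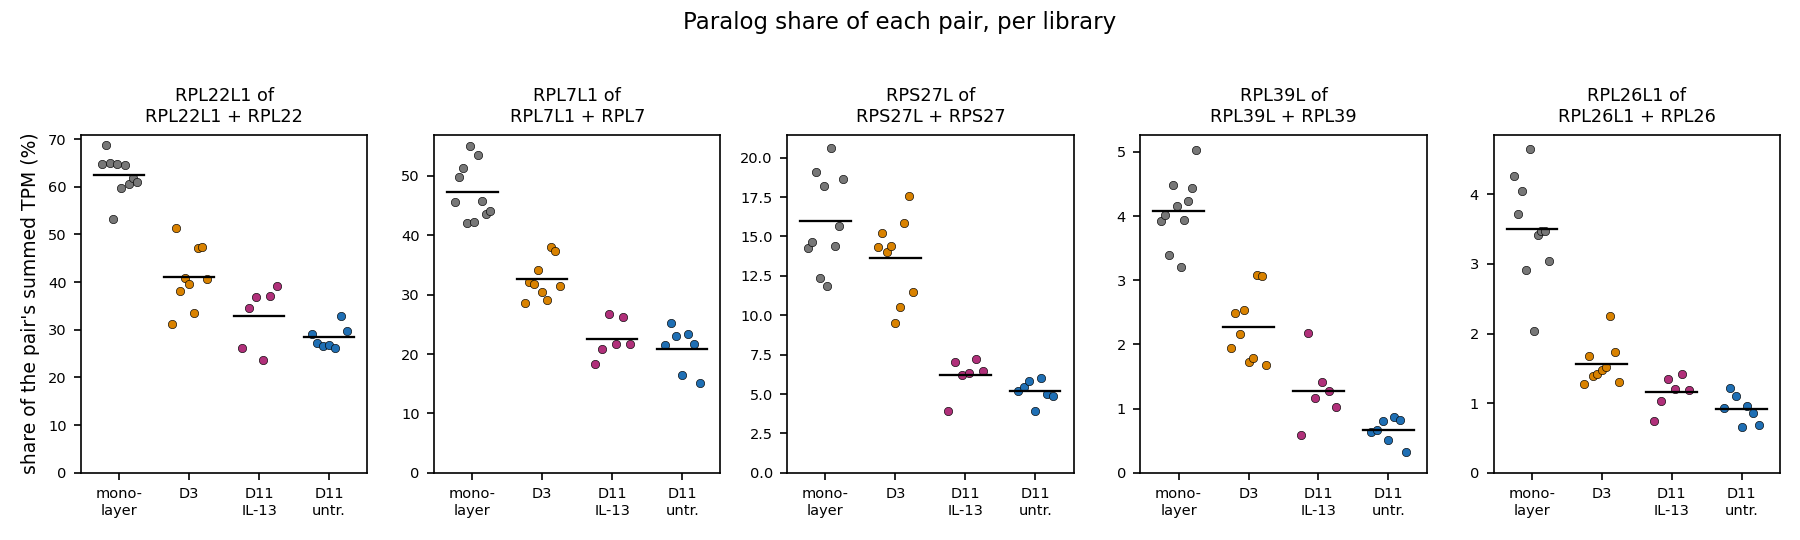
Share of the paralog in the summed TPM of paralog and core partner (percent) for 5 pairs, 1 point per library of the 4 groups, with a line for each group mean. The RPL22L1 share averages 62.4% in monolayer cells, 41.1% at D3 and 28.4% in untreated D11 spheroids, and the RPL7L1 share 47.3%, 32.6% and 20.9% in that order.

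IL-13 was compared with no cytokine in D11 spheroids, and here the median member and the median gene changed by similar amounts. On the deposited TPM 30 members rose and none fell in IL-13 spheroids (limma), against 39.2% and 8.49% of all genes, with medians of 0.21 for members and 0.19 for all genes. Without untreated D11 library 2 the 30 became 19, and with untreated D11 library 6 or IL-13 library 6 left out 1 member fell. Without MT- genes 32 rose and none fell, against 29.7% and 7.80% of all genes, and median-of-ratios scaling gave 3 higher and 4 lower (19.2% and 20.6%) with a median of -0.04. Quantile normalization gave 21 higher and 3 lower, against 19.0% and 20.5% of all genes. The summed share was 5.75 ± 0.429% in IL-13 spheroids and 4.92 ± 0.456% in untreated spheroids (SD, n = 6 and 7), which overlap. Without MT- genes it was 7.27 ± 0.230% (6.91 to 7.56%) in IL-13 spheroids and 6.29 ± 0.282% (5.92 to 6.81%) in untreated spheroids, which do not. IL-13 libraries lay above every untreated library for 5 members (9.66% of all genes) and below for 0 (4.03%) on the deposited TPM, and above for 12 (6.21%) and below for 0 (4.64%) without MT- genes. The IL-13 libraries belong to batch 1 in 5 cases and batch 2 in 1, but which is which could not be matched, so no value within a batch is given. COL1A1 was at 34.6 ± 8.76 TPM in IL-13 spheroids and 69.9 ± 8.43 TPM in untreated spheroids, CD68 at 316 ± 16.2 and 436 ± 28.4 TPM, and TP63 at 21.0 ± 3.51 and 11.8 ± 0.802 TPM. The other basal squamous markers overlapped between these groups. KRT5 had 24530.1 to 32674.1 TPM in IL-13 spheroids and 21389.2 to 32008.9 TPM in untreated spheroids. KRT14 had 23795.4 to 40953.5 and 24467 to 38298 TPM in that order. KRT8 had 10.7 to 15.6 and 5.2 to 7 TPM, without overlap, and KRT18 42 to 70.9 and 52.3 to 101.7 TPM, with overlap. The part of these marker genes in the change was not tested.

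RPL3 and its paralog RPL3L were the members that rose with IL-13 on each of the 5 scales fitted. RPL3 had 1272.4 to 1462.3 TPM in IL-13 spheroids (median 1319.8) and 882 to 1025.9 TPM in untreated spheroids (median 916.7), with no overlap. Its log2 change was 0.57 ± 0.09 on the deposited TPM (limma, adjusted p = 6.0e-06), 0.53 ± 0.06 without MT- genes (adjusted p = 1.5e-08) and 0.33 ± 0.09 relative to the median member (adjusted p = 0.0063). RPL3L had 0.7 to 1.3 TPM in IL-13 spheroids (median 1) and 0.1 to 0.6 TPM in untreated spheroids (median 0.2), a change of 0.63 ± 0.11 (adjusted p = 3.9e-05) at a level close to the rounding of the table. Relative to the median member it rose by 0.39 (adjusted p = 0.017) with a pseudocount of 1 and changed by -0.05 (adjusted p = 0.72) with one of 5. RPL13A rose by 0.49 on the deposited TPM and by 0.45 without MT- genes, with 853.4 to 1025.5 TPM in IL-13 spheroids (median 920.65) and 628.6 to 707.9 TPM in untreated spheroids (median 681.8), again without overlap. RPS29, a small zinc-binding protein, had the largest change, 0.84 ± 0.30 (adjusted p = 0.023), but IL-13 library 5 alone had 183.5 TPM where the other 5 had 22.7 to 51.1. Without that library the change was 0.44 (adjusted p = 0.097).

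Relative to the median member 7 genes fell with IL-13 and 2 rose (limma), against 12.8% and 8.13% of all genes; without IL-13 library 1 the 2 became 4. The 7 were RPL39, RPL12, RPS21, RPS18, RPL24, RPL9 and RPS10. With only these 2 groups in the fit 4 fell, RPL39, RPL12 and RPS21 among them, and 1 rose, RPL3L, while RPL3 missed the threshold. RPL39 had 67.3 to 165 TPM in IL-13 spheroids (median 117.35) and 97.1 to 188.6 TPM in untreated spheroids (median 147.7), which overlap, with a relative change of -0.60 ± 0.17 (adjusted p = 0.010) and one of -0.37 ± 0.18 (adjusted p = 0.080) on the deposited TPM. RPL12 and RPS21 had relative changes of -0.37 (adjusted p = 0.019, and 0.057 without IL-13 library 4) and -0.34 (adjusted p = 0.016). RPS27, so much higher at D11 than at D3, had 183.3 to 308.1 TPM in IL-13 spheroids and 218.3 to 276.6 TPM in untreated spheroids, and its change of -0.08 was not called (adjusted p = 0.73). Among pairs, the RPL39L share was 1.27% in IL-13 spheroids and 0.661% in untreated spheroids, with overlap (exact permutation p = 0.0105, adjusted 0.0140). RPL39L averaged only 1.34 TPM over the 32 libraries in values rounded to 1 decimal, and the permutation test took no account of batch. For RPL22L1 the shares were 32.9 ± 6.43% in IL-13 spheroids and 28.4 ± 2.41% in untreated spheroids (exact p = 0.110, adjusted 0.115).

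On the deposited TPM the 2 batches agreed in direction for the family but not in size. The median member changed by 0.72 in batch 2 and 0.34 in batch 1 between D3 spheroids and monolayer cells, by 0.40 and 0.48 between untreated D11 and D3 spheroids, and by 1.09 and 0.76 between untreated D11 spheroids and monolayer cells. For the first of these, 34 of 84 members had a larger change in batch 2 and none a smaller one (limma, batch by group term). Of all genes, 45.2% were called in either direction, a larger share. The number was 3 for untreated D11 against D3 spheroids, against 23.8% of all genes, and 22 for untreated D11 spheroids against monolayer cells, against 48.3%. Without MT- genes the numbers were 10, 0 and 17, against 42.2%, 8.79% and 48.1% of all genes. Under median-of-ratios scaling they were 30, 1 and 49, against 44.9%, 15.3% and 48.2% of all genes, and all 49 had the larger change in batch 2. The median member's batch 2 minus batch 1 difference was 0.36, -0.082 and 0.25 on the deposited TPM. Without MT- genes it was 0.088, 0.014 and 0.095. The MT- share of D3 spheroids was 44.9 ± 5.89% in batch 2 and 51.4 ± 7.95% in batch 1 (SD, n = 5 and 4). RPL7L1 and RPL26L1 changed sign between batches at D3, with 0.17 and 0.09 in batch 2 and -0.58 and -0.71 in batch 1.

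Genes that work with the ribosome were read beside it. FAU, a ribosomal protein gene whose symbol the rule does not reach and which carries RPS30 behind a ubiquitin-like protein, had 349.5 to 518.6 TPM in D3 spheroids and 257 to 381.4 TPM in monolayer cells, and rose by 0.42 ± 0.09 (limma, adjusted p = 1.9e-04). Of 14 translation factors and other genes with TOP mRNAs, 9 rose and 3 fell at D3, against 12.7% and 68.2% of all genes. At untreated D11 against D3, 8 rose and 2 fell (33.6% and 35.8% of all genes), but without MT- genes 1 rose and 9 fell, near the 13.6% and 65.7% of all genes. With IL-13 9 rose and none fell (39.2% and 8.49%), and under median-of-ratios scaling none was called (19.2% and 20.6%). TPT1, an abundant TOP mRNA, had 5671.2 to 8342.6 TPM in untreated D11 spheroids (median 6288.2) and 1208.3 to 2456.4 TPM in D3 spheroids (median 2207.2), a rise of 1.86 ± 0.12 (adjusted p = 1.0e-14) and of 1.26 without MT- genes. A pyrimidine run as defined above was present in 6 of the 8 genes of this list with a promoter entry.

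Ribosome biogenesis factors, which build the ribosome in the nucleolus, mostly fell between D3 and untreated D11 spheroids. Of 47 tested, 2 rose and 43 fell in untreated D11 spheroids on the deposited TPM, against 33.6% and 35.8% of all genes, with a median change of -0.94 where that of the ribosomal protein genes was 0.44, a difference that was not tested. Without MT- genes 0 rose and 45 fell, against 13.6% and 65.7% of all genes. Of 84 ribosomal protein genes 6 rose and 42 fell on that scale, in each direction a smaller share than that of all genes. Median-of-ratios scaling gave 2 and 43, against 37.8% and 35.3%. At D3 against the monolayer 3 rose and 30 fell on the deposited TPM, near the 12.7% and 68.2% of all genes, but 17 rose and 4 fell under median-of-ratios scaling, against 33.2% and 33.1%. RRS1, needed for 5S particle loading, had 17.9 to 55.7 TPM in untreated D11 spheroids and 115.2 to 184.4 TPM in D3 spheroids, without overlap, and fell by 2.17 on the log2 scale (limma, adjusted p = 1.6e-09). A pyrimidine run was present in 6 of 40 genes of this list. With IL-13 23 rose and 1 fell, against 39.2% and 8.49% of all genes, with a count of rises of 35 without IL-13 library 1, 15 without IL-13 library 3 or 6, and 6 under median-of-ratios scaling.

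Of 12 genes of the mTOR pathway and its TOP regulators, none rose and 9 fell at D3, near the 12.7% and 68.2% of all genes. At untreated D11 against D3, 4 rose and 4 fell, near the 33.6% and 35.8% of all genes, and 2 rose without any of D3 libraries 1 and 3 or untreated D11 libraries 1, 3, 4 and 7. Without MT- genes 1 rose, EIF4EBP1, and 11 fell (13.6% and 65.7% of all genes). EIF4EBP1, the translation repressor 4E-BP1, had 83.6 to 97.7 TPM in untreated D11 spheroids (median 90.5) and 8.2 to 16.6 TPM in D3 spheroids (median 13.6), while monolayer cells had 25.6 to 48.7 TPM. The change against D3 was 2.82 ± 0.14 (limma, adjusted p = 2.4e-17) and the groups did not overlap. LARP1 had 13.6 to 17.3 TPM in untreated D11 spheroids and 34.1 to 42.6 TPM in monolayer cells and fell by 1.30 on the log2 scale (adjusted p = 8.4e-18). With IL-13 4 genes of this list rose and 1 fell, against 39.2% and 8.49% of all genes. MLST8 rose most, by 0.56 ± 0.11 (adjusted p = 8.6e-05), and the gene that fell was EIF4EBP1, with 63.1 to 76 TPM in IL-13 spheroids and 83.6 to 97.7 TPM in untreated spheroids, a change of -0.36 ± 0.15 (adjusted p = 0.049). That fall was not called without MT- genes (-0.40, adjusted p = 0.084), and the list had no gene lower without any of untreated D11 libraries 1, 2, 3 and 7 or IL-13 libraries 1, 4, 5 and 6, and 2 without untreated D11 library 6. Of 75 nuclear-encoded mitochondrial ribosomal protein genes, 4 rose and 43 fell at untreated D11 against D3 (33.6% and 35.8% of all genes), and 1 and 73 without MT- genes (13.6% and 65.7%). With IL-13 57 rose and none fell (39.2% and 8.49% of all genes), and 22 and 2 under median-of-ratios scaling (19.2% and 20.6%). Their median change with IL-13 was 0.41 and that of the cytosolic genes 0.21, a difference that was not tested. At D3 their direction turned with the scaling, 5 higher and 36 lower on the deposited TPM (12.7% and 68.2% of all genes) and 61 higher and 2 lower under median-of-ratios scaling (33.2% and 33.1%). The 5 became 3 without D3 library 6.

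The levels carry limits of their own. GENCODE release 29 lists 0 to 91 pseudogenes per core gene (median 10), near-identical copies to which reads can be assigned, and how the authors' counting divided such reads is not given in the sources used here. The 38 core genes with fewer than 10 pseudogenes had a median level of 325 TPM over the 32 libraries, and the 11 with 30 or more had 193 TPM. Across the 77 core genes the Spearman rho between pseudogene number and the relative change was -0.02 for D3 against monolayer and -0.15 for untreated D11 against D3 spheroids. Across the 62 with a promoter entry, that between the length of the pyrimidine run and the relative change was 0.088 and 0.084 for the same comparisons, 0.16 for untreated D11 against monolayer and -0.26 for IL-13 against untreated D11 spheroids. With the mean log2 TPM over the 32 libraries, the rho across the 77 core genes was 0.50 for D3 against monolayer. It was -0.22 for untreated D11 against D3, 0.011 for untreated D11 against monolayer and 0.39 for IL-13 against untreated D11 spheroids. With exon length it was -0.037, -0.048, -0.11 and 0.23 in the same order. These are descriptions across genes that share libraries and total. The readthrough RPL17-C18orf32 overlaps RPL17 and averaged 16.4 TPM in monolayer cells, 20.6 at D3 and 45.2 in untreated D11 spheroids, so the level of RPL17 is uncertain.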

How the data were processed

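RNA-seq of EPC2 monolayers and spheroids was analysed from 1 table of TPM values deposited by the authors, rounded to 1 decimal, with 19345 symbols and 32 libraries. Per the submitters' processing notes the reference was hg38, while no source used here names the aligner, quantifier, annotation or strand handling. Depth cannot be read from TPM, so the error given is that between libraries. Because TPM is a share of a total, transcripts that take up much of a library lower the rest. IL-13 columns, which run 1 to 6, matched no title and were matched to their group only. They carried its batch 2 share, 1 of 6, in the fit.

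Tests used log2(TPM + 1) of the 12221 genes that reached 1 TPM in 6 or more libraries. All 32 libraries entered 1 limma 3.58.1 fit (R 4.3.3) with group and batch and an intensity trend, with Benjamini-Hochberg adjustment over all genes tested and a threshold of 0.05. The fit was repeated without MT- genes (12208 genes left) and after subtracting each library's median over the tested members. Batch by group terms used the monolayer, D3 and untreated D11 libraries. Paralog shares of a pair were compared with 2-sided exact permutation tests, adjusted over 20. The fit was tested on simulated data. Named were 21 members whatever their result, the 3 largest rises and falls per comparison and scale, and the largest rise and fall of each list; others named by count or pair were chosen after their values were seen. The members and lists were chosen with earlier results of these data known. Promoter sequences are from RefSeq (GRCh38.p14) and gene models from GENCODE release 29. Figures used matplotlib 3.10.9 under Python 3.11.15. Alternatives covered the pseudocount, filter, scaling, batch term, single batches, libraries in the fit and single libraries left out. No protein sequence was used. Results for 2 further genes are not reported here.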

Additional observations from a re-analysis of the deposited data

Results flagged for a closer look

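The levels of the 28 members named and the summed shares were examined in 120 sets of libraries of 1 group for a single library far from the others, and 4 held one. Chance gives about 1 in 20. RPS29 had 183.5 TPM in IL-13 library 5, where the other IL-13 libraries had 22.7 to 51.1, and 27.1 TPM in 1 monolayer library, where the others had 10.2 to 13.1. RPL10 had 153.7 TPM and RPS21 163.4 TPM in 1 D3 library each, above all other D3 libraries.

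For 12 changes of these members, 5, 3 and 4 in the 3 comparisons over time, the batches differed by the batch by group term of limma at an adjusted p under 0.05, given as batch 2 minus batch 1 on the log2 scale. Of all genes, 45.2%, 23.8% and 48.3% had such a difference. For D3 spheroids against monolayer these were RPL26L1 at 0.80, RPL7L1 at 0.76, RPL7 at 0.47, RPSA at 0.44 and RPL22 at 0.28. For untreated D11 against D3 spheroids they were RPL26L1 at -0.54, RPL7L1 at -0.48 and RPL39L at -0.35. For untreated D11 spheroids against monolayer they were RPL22L1 at 0.62, RPSA at 0.43, RPL41 at 0.41 and RPL39L at -0.27. The part of the MT- share, which differed between the batches in D3 spheroids, was not tested.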

How the results depend on the processing

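Removing MT- genes changed untreated D11 against D3 spheroids most: 6 members higher and 42 lower, median -0.16, with RPLP0 at -0.49, RPLP1 -0.24, RPSA -0.39, RPS6 -0.51, RPS27A -0.36, RPL41 -0.38, RPL7 -0.22, RPL22 -0.47 and RPS27L -0.031 turned round. Against monolayer the median was 0.38 and RPL3 -0.0052, and group shares were 4.89, 7.43 and 6.29% (IL-13 7.27%). Members with a batch difference numbered 10 at D3 and 0 at untreated D11 against D3 (42.2% and 8.79% of all genes). Median-of-ratios scaling gave no member lower at D3 (median 1.07, RPL7L1 0.36, RPL26L1 0.17, RPL39L 0.043). It gave 3 lower at untreated D11 against monolayer (median 1.53, RPL26L1 0.12), and 3 higher and 4 lower with IL-13 (median -0.044, RPL22 -0.0043). Batch differences on that scale numbered 1 for untreated D11 against D3 and 49 for untreated D11 against monolayer (15.3% and 48.2% of all genes). Quantile normalization gave 0 lower at D3, against 35.6% of all genes (median 0.86, RPL26L1 0.20, RPL39L 0.052), and 3 lower with IL-13. At untreated D11 against D3 it gave 20 higher and 33 lower (median -0.060, RPLP0 -0.74, RPLP1 -0.45, RPLP2 -0.090, RPSA -0.41, RPS6 -0.72, RPL41 -0.44, RPL7 -0.16). At untreated D11 against monolayer RPL41 was at -0.31 and RPL26L1 at 0.14. Batch differences numbered 17 at D3 and 1 at untreated D11 against D3 (44.9% and 13.9% of all genes). Filtering at 10 TPM left 2, 3 and 3 lower in the 3 steps, since fewer paralogs were tested. In batch 1 alone the medians were 0.34 and 0.76 against monolayer, 3 members were lower at untreated D11 against D3, and relative counts were 16 higher at D3 and 22 lower at untreated D11 against monolayer, with RPL10 at 0.21. In batch 2 alone the D3 median was 0.72, RPL7L1 0.17 and RPL26L1 0.091, and the relative counts of rises were 4, 8 and 10. Relative counts with IL-13 were 1 higher and 4 lower with only these groups fitted, 1 higher with a pseudocount of 5 (RPL3L -0.050, and -0.36 at D3) and 4 higher without IL-13 library 1. Where no value or the construction of the alternative shows it, the cause was not tested.

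Leaving out 1 library gave 72 to 75 higher at D3, 58 to 64 at untreated D11 against D3, 77 to 78 against monolayer and 19 to 35 with IL-13, where 0 to 1 fell and 2 to 4 rose relative to the family. Leaving out D3 libraries 4 and 7, chosen after seeing the data, changed no count by over 1.5 times. Libraries of the same number did not deviate together (r from -0.44 to 0.36), so the numbers are not shown to pair them; with a replicate block 73 rose and 6 fell at D3, 56 and 5 at untreated D11 against D3, and 77 and 5 against monolayer, and no count of members moved by over 1.5 times. Without depth, the error of low members such as RPL3L, RPL39L and RPL36A is unknown.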
